A study of Mus musculus with 16 samples.

Results

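DNA methylation was examined at 5 genes that encode transcription regulators of the B lineage, Pax5, Ebf1, Spib, Pou2af1 and Bcl11a, in resting B cells and naive T cells of the mouse spleen. The genes were chosen by name, as 5 of 21755 protein-coding genes annotated on chromosomes 1 to 19 and X in GENCODE vM21. For each gene the region from 10 kb upstream of its 5′-most annotated transcription start site (TSS) to its 3′ end was divided into tiles of 500 bp, and a window of 1 kb on either side was taken at each annotated TSS. Of 1516 tiles in the 5 regions, 1231 held at least 3 CpGs and 1050 could be tested, which is 1050 of 2252942 tiles tested in the genome. All 5 gene regions and all 23 of their TSS windows could be tested.

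B lineage identity rests on a small circuit of regulators. Ebf1, together with the E protein encoded by Tcf3, opens the programme in the earliest B cell progenitors, and Pax5 then commits these cells by activating B cell genes and repressing those of other lineages. Bcl11a is a zinc finger protein without which B cell development fails early, and it is also known as a repressor of fetal globin genes. Spib belongs to the Ets family and is closely related to PU.1, the product of Spi1. Pou2af1 encodes a coactivator with no DNA-binding domain of the usual kind, which joins the octamer-binding proteins Oct-1 and Oct-2 and is needed for germinal centres. In mammalian cells cytosines of CpG pairs are mostly methylated, and active promoters and enhancers stand out as stretches with low methylation.

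The data were 16 whole-genome bisulphite libraries of C57BL/6J mice aged 6 to 8 weeks, without any genetic change or treatment. The 8 B cell libraries came from CD43- splenocytes left after magnetic depletion of CD43, CD4 and Ter-119 positive cells, and the 8 T cell libraries from splenocytes sorted as CD4+ and CD62L+. In each cell type 4 libraries were male and 4 female, with 2 bisulphite (BS) and 2 oxidative bisulphite (oxBS) libraries in each sex. Both 5-methylcytosine and 5-hydroxymethylcytosine are read as methylated after BS treatment, and after oxBS treatment 5-methylcytosine alone is. The labels give library numbers from 1 to 16 and no mouse. Ligated DNA was split before oxidation, so a BS and an oxBS library may hold DNA of the same cells. If they do, the 8 libraries of a cell type are not independent and the p-values are too small. In sorted but still bulk samples, an intermediate level cannot be told apart as a mixture of cells with low and high levels or as a like level in every cell.

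Between 123323834 and 170619848 calls per library were used, which is 5.78 to 7.99 calls per CpG, and in the member tiles a library had a median of 47 calls. A methylation level is the percentage of methylated calls, counted in a library with at least 20 calls, and levels are given as the mean over libraries ± SD. Differences are B cells minus T cells in percentage points and were tested by logistic regression on the calls, quasi-binomial and adjusted for sex and assay. P-values were adjusted by the Benjamini-Hochberg method over all tiles, windows or regions of the genome. A tile or TSS window was called at an adjusted p under 0.05 with a difference of at least 20 points, and a gene region at a difference of at least 5 points.

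At marker genes the cell types differed in the direction of their labels. The B cell markers Cd79a, Cd79b, Ms4a1 and Cd22 each had a TSS window called lower in B cells, and all 6 T cell markers (Cd3d, Cd3e, Cd3g, Cd4, Lck and Thy1) had one called higher in B cells. Of all protein-coding genes 1.61% had a TSS window called lower and 3.23% one called higher. Genes differed in the number of windows that could be called, such as 1 for Cd79a and 15 for Cd22. Markers of natural killer cells (Ncr1 and Klrb1c) and of neutrophil precursors (Elane) were at 83.9% to 89.3% in both cell types. Of the 10 markers of other cells, Cd8a and Cd8b1 were called higher in B cells and none lower, and Lyz2, a myeloid marker, was at 46.6% ± 5.77 in B cells and 65.1% ± 3.36 in T cells (quasi-binomial adjusted p = 0.000235) without reaching 20 points. Itgam, another myeloid marker, was at 73.8% ± 3.71 and 63.9% ± 7.98 (quasi-binomial adjusted p = 0.0659). No expression was measured, so that the markers were read by methylation.

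The B cell libraries fell into separate sets, at the tiles called lower in B cells and beyond them. Over the 97 member tiles that were called lower in B cells, libraries 1, 2, 9 and 10 had mean levels of 40.7% to 41.9% and libraries 3, 4, 11 and 12 had 29.4% to 32.8%. The same libraries differed over all 25034 tiles of the genome called lower in B cells, with 43.6% to 44.2% against 38.3% to 38.5%. Each of these sets holds BS and oxBS, and male and female, libraries. In T cells the libraries differed by assay instead, with 79.4% to 79.7% in BS and 76.1% to 76.3% in oxBS libraries over the latter tiles. Over all tiles of the genome called higher in B cells, the T cell libraries were at 46.0% to 46.2% in BS and 36.4% to 36.6% in oxBS. Over the member tiles called higher these values were 36.0% to 38.6% and 33.0% to 36.2%. At those member tiles B cell libraries 1, 2, 9 and 10 had 68.3% to 70.9% and libraries 3, 4, 11 and 12 had 63.4% to 64.7%. Over all tiles of the genome called higher the same sets had 80.65% to 80.72% and 78.6% to 79.0%. The mean of libraries 1, 2, 9 and 10 was the higher one in 871 of all 1050 tested member tiles. What set the B cell libraries apart was not tested. Counts without each set, a choice made after these values were seen, are given below.

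In the 5 regions 97 of 1050 tiles (9.24%) were called lower in B cells and 28 (2.67%) were called higher. Over all tiles tested, 1.11% were called lower in B cells and 1.96% higher. For tiles within protein-coding gene regions of the genome these shares were 1.33% and 2.51%. The share of lower tiles was thus above the genome's in the 5 genes together, while the share of higher tiles lay near it. In 108 of the 125 called tiles every B cell library lay on one side of every T cell library. A call requires a large difference, which makes overlap rare, and rarer still at the tiles named below, which were picked for the largest differences. The same share over all called tiles of the genome was not counted.

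**Figure D1:**
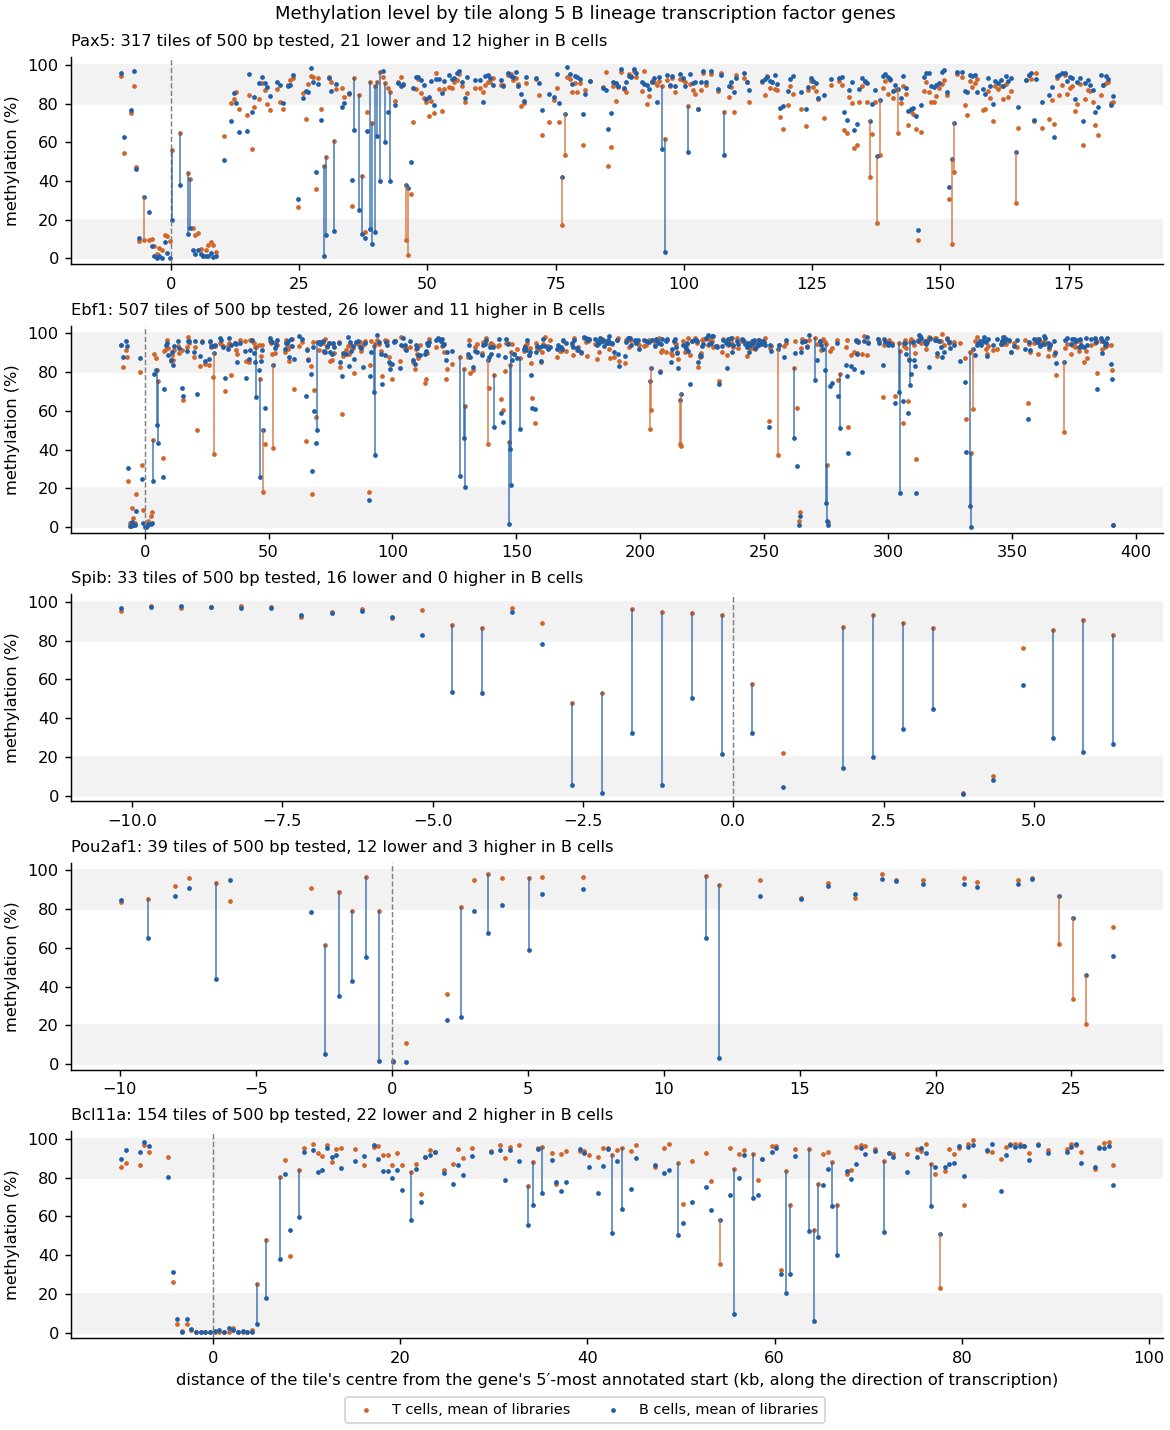
Methylation level (%) of each tested 500 bp tile along the 5 genes, as the mean over B cell (blue) and T cell (orange) libraries, against distance in kb from the 5′-most annotated start (dashed line). Vertical lines join the means of the 125 called tiles, blue where B cells are lower (97) and orange where they are higher (28), and grey bands mark levels up to 20% and from 80%.

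The shares differed widely between the genes. Spib had the largest share, with 16 of 33 tiles (48.5%) lower in B cells and none higher, and Pou2af1 followed with 12 of 39 (30.8%) lower and 3 higher. Bcl11a had 22 of 154 (14.3%) lower and 2 higher. In the longest genes the called tiles were spread thin, with 21 of 317 (6.62%) lower and 12 higher in Pax5 and 26 of 507 (5.13%) lower and 11 higher in Ebf1. Among 19068 protein-coding genes with at least 10 tested tiles, of which the median gene had 0 tiles lower in B cells, Spib ranked 3, Pou2af1 18, Bcl11a 160, Pax5 926 and Ebf1 1378 by the share of lower tiles. By the number of lower tiles, which grows with gene length, Ebf1 ranked 19, Bcl11a 44, Pax5 47, Spib 91 and Pou2af1 170.

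**Figure D2:**
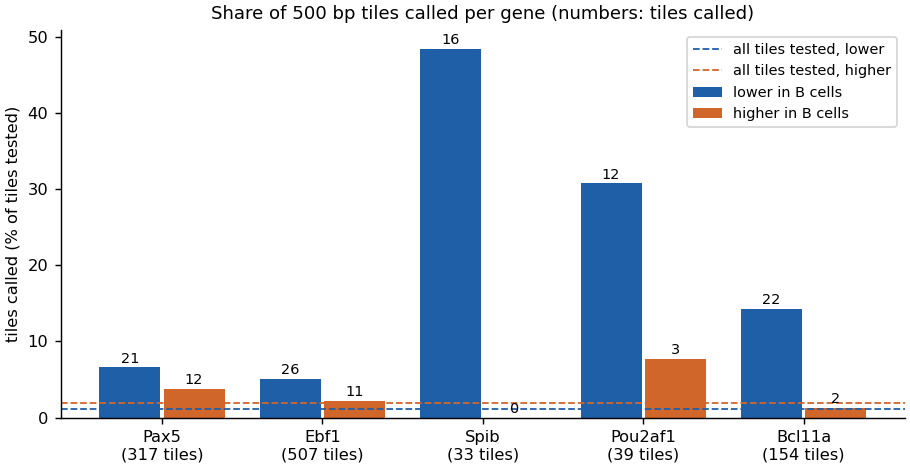
Share of tested tiles called (% of tiles) in each gene, lower (blue) or higher (orange) in B cells, with the number of tiles above each bar. Dashed lines mark the shares over all tiles tested in the genome, 1.11% lower and 1.96% higher, and every blue bar rises above its line.

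Leaving out B cell libraries 1, 2, 9 and 10 gave 102 tiles lower and 17 higher, of 986 tested, and leaving out libraries 3, 4, 11 and 12 gave 74 lower and 26 higher, of 1062. Of the lower tiles, 85 and 73 were among the 97. The BS libraries alone, which hold 4 libraries of each cell type and so no BS and oxBS pair, gave 29 tiles lower and 5 higher, and all 29 were among the 97.

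For the tile with the largest difference in each gene, the stretch of 200 bases with most CpGs is shown, so that the CpGs behind that difference can be seen. The tile of Pax5 that was higher in B cells by most is added as a CpG-rich example of the opposite direction. They are the + strand of GRCm38.p6 (mm10), 5′ to 3′, with CpGs in capitals, at chr4:44671741-44671940 and chr4:44558094-44558293 for Pax5, chr11:44892001-44892200 for Ebf1, chr7:44533045-44533244 for Spib, chr9:51225554-51225753 for Pou2af1 and chr11:24133508-24133707 for Bcl11a.
Pax5 tile 1: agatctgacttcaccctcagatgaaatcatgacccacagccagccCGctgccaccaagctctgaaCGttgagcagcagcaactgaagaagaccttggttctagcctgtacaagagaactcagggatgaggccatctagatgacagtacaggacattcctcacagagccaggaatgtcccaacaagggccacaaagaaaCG
Ebf1 tile 1: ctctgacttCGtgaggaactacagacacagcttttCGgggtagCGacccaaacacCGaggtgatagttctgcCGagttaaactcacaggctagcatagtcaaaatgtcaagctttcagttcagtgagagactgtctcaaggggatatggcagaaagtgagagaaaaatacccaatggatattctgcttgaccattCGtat
Spib tile 1: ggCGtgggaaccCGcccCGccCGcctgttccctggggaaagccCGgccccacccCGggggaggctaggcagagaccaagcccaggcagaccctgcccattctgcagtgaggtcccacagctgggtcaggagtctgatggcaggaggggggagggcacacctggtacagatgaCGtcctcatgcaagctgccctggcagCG
Pou2af1 tile 1: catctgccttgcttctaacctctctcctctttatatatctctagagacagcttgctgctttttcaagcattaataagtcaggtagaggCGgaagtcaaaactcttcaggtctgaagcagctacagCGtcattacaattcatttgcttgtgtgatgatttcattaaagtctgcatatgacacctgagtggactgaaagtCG
Bcl11a tile 1: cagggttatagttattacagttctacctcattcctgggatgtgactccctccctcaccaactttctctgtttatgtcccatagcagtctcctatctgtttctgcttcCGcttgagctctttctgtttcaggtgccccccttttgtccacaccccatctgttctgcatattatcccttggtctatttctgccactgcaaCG
Pax5 tile higher in B: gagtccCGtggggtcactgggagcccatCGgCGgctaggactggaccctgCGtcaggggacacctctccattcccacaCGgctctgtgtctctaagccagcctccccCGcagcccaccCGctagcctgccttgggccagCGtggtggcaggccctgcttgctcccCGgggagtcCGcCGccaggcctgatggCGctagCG

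The stretches differ greatly in CpG content, with 2 CpGs in the stretch of Bcl11a tile 1, 3 in those of Pax5 and Pou2af1, 6 in Ebf1, 8 in Spib and 13 in the Pax5 tile that was higher in B cells. Over the member tiles the median was 7 CpGs in those lower in B cells, 7.5 in those higher and 6 in those not called, while over all tested tiles of the genome it was 6 in each of the 3 classes.

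Short motifs were searched on both strands of every tested tile: TCCCNNGGG (a core bound by EBF1), ATGCAAAT (the octamer at which Pou2af1 acts), GAGGAA (a core of PU.1 family sites) and CANNTG (the E box of the E proteins). Each was counted by itself, and matches could overlap those of another motif or of the other strand. TCCCNNGGG was present in 13 of the 97 member tiles lower in B cells (13.4%) and in 4 of the 28 higher (14.3%), while it was present in 6.39% of all tested tiles and in 20.2% of all tiles lower in B cells. Spib tile 1 held 3 matches, a site that reads the same on both strands being counted on each, and the Pax5 tile higher in B cells also held 3. ATGCAAAT was present in 7 of the 97 lower tiles (7.22%) and 1 of the 28 higher (3.57%), against 3.32% of all tested tiles and 4.85% of all tiles lower in B cells. GAGGAA was present in 45.4% of the lower and 57.1% of the higher member tiles, against 39.9% of all tested tiles and 48.8% of all tiles lower in B cells. For CANNTG these shares were 95.9%, 92.9%, 94.0% and 95.3%. A match is a description of the letters and not of a bound site.

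Ebf1 (ENSMUSG00000057098.14, chr11:44617317-45008091, + strand) kept a low level at its start in both cell types and differed in scattered tiles of its introns. B cells were at 80% or more in 415 of its 507 tested tiles, and T cells in 427. The 26 lower tiles fell in 18 runs of at most 3 neighbouring tiles, between 3.43 and 333.43 kb from the start. In the transcript model with the longest coding sequence, Ebf1-202, 25 lay in introns and 1 overlapped a coding exon. Intron 6, the longest with 301 tested tiles, held 13 of them and 8 of the 11 higher tiles.

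The largest difference lay in intron 8, at Ebf1 tile 1 (chr11:44892001-44892500, 8 CpGs). There the 8 B cell libraries ranged from 5.63% to 17.4% with a median of 12.3%, and the 8 T cell libraries from 91.5% to 97.8% with a median of 94.8%. Every B cell library was thus far below every T cell library, and the means were 82.2 points apart (quasi-binomial adjusted p = 1.11e-08). The low level did not fill the tile. In pooled B cell calls the 6 CpGs of the 200 bases shown above were at 0% to 6.90%, whereas those further along were at 47.4% and 86.5%.

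Ebf1 tile 2 in intron 10 (chr11:44950001-44950500) had levels of 7.69% to 15.0% in B cells and 86.2% to 93.5% in T cells, a difference of 79.9 points. Ebf1 tile 3 in intron 9 (chr11:44922001-44922500) had 8.57% to 23.8% in 7 B cell libraries and 80% to 100% in 7 T cell libraries, a difference of 73.5 points. Neither tile showed any overlap between the cell types, with quasi-binomial adjusted p of 4.40e-08 and 4.19e-06.

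The tile of Ebf1 that was higher in B cells by most was in intron 7 (chr11:44872501-44873000, 3 CpGs). Its levels were 87.5% to 100% in 7 B cell libraries and 24.0% to 51.9% in 7 T cell libraries, 54.7 points apart (quasi-binomial adjusted p = 3.75e-05). In the fits with a single assay or sex the difference was 48.4 to 62.2 points and the call was lost (quasi-binomial adjusted p = 0.0561 to 0.208). Single CpGs differed within the tile. The first was high in both cell types, at 91.5% in B cells and 98.4% in T cells, and the other two were at 91.2% and 92.8% in B cells against 3.75% and 21.4% in T cells.

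Pax5 (ENSMUSG00000014030.15, chr4:44524757-44710487, - strand) had tiles of both directions, which alternated along the gene. The 21 lower tiles had their median position 38.74 kb from the start and the 12 higher tiles 136.99 kb. Intron 5 of the model Pax5-201 held 11 of the lower tiles among 56 tested, besides 2 higher ones, and introns 6, 7 and 8 together held 3 lower and 9 higher. An enhancer active in the B lineage is known in intron 5 of Pax5, and whether it coincides with these tiles was not examined. The antisense gene Gm12462 overlaps 13 of the lower tiles, so that the calls there belong to both genes.

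The longest run of lower tiles spanned 2500 bp (5 tiles, chr4:44669501-44672000) in intron 5 and contained the 3 tiles with the largest differences. At Pax5 tile 1 (chr4:44671501-44672000, 4 CpGs) the B cell libraries ranged from 4.76% to 33.3% with a median of 13.7%, and the T cell libraries from 84.8% to 95.6% with a median of 91.2%. At Pax5 tile 2 (chr4:44670501-44671000) they ranged from 3.70% to 28.9% and from 85% to 97.1%. Pax5 tile 3 (chr4:44671001-44671500) had 0% to 15.3% in 7 B cell libraries and 64.9% to 77.4% in 8 T cell libraries. It lies between the other two and had a lower mean than either in both cell types. The differences were 76.0, 75.5 and 62.7 points with quasi-binomial adjusted p of 1.44e-07, 1.10e-07 and 2.62e-06, and none of the 3 tiles overlapped between the cell types. Within tile 1 the first 3 CpGs were at 0% to 3.75% in B cells, and the last was at 48.3%.

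The opposite change was largest in intron 8, in a CpG-rich tile (chr4:44558001-44558500, 26 CpGs). The T cell libraries were at 4.94% to 11% and the B cell libraries at 41.7% to 60.6%, without overlap and 43.7 points apart (quasi-binomial adjusted p = 2.33e-07). All 26 CpGs were higher in B cells, at 8.62% to 95.6% against 0% to 21.1%, so that the levels of single CpGs covered a wider range in B cells than in T cells. A second CpG-rich stretch with the same direction lay in intron 5 at chr4:44664001-44664500, which was singled out after its values were seen. Its 59 CpGs, the most in any called member tile, were at 36.3% ± 4.30 in B cells and 1.72% ± 0.520 in T cells.

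Bcl11a (ENSMUSG00000000861.15, chr11:24078056-24174123, + strand) was unmethylated at its start in both cell types and lower in B cells along its second intron. The 22 lower tiles fell in 17 runs of at most 3 tiles, 4.69 to 76.69 kb from the start, and 19 of them lay in intron 2 of the model Bcl11a-202, which had 103 tested tiles. Their differences were mostly moderate, with a median of -28.6 points, and 4 of the 22 were at 20% or less in B cells.

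At the largest differences some libraries did not reach 20 calls. Bcl11a tile 1 (chr11:24133501-24134000, 3 CpGs) had levels of 4.17% to 18.2% in 6 B cell libraries and 66.7% to 95.2% in 7 T cell libraries, 74.7 points apart (quasi-binomial adjusted p = 0.000109). Bcl11a tile 2 (chr11:24139001-24139500) had 6.67% to 34.8% in 5 B cell libraries and 79.3% to 93.5% in 6 T cell libraries, 63.4 points apart (quasi-binomial adjusted p = 0.00251). The third, at chr11:24142001-24142500, was measured in all libraries, with 0% to 13.8% in B cells and 41.2% to 60.5% in T cells (quasi-binomial adjusted p = 7.03e-06). None of the 3 tiles overlapped between the cell types. Without B cell libraries 1, 2, 9 and 10 the first 2 could not be tested, as fewer than 3 B cell libraries had 20 calls. Bcl11a tile 1 lost the call in BS, oxBS and male libraries alone (quasi-binomial adjusted p = 0.105, 0.138 and 0.103). Bcl11a tile 2 lost it in oxBS libraries alone (quasi-binomial adjusted p = 0.257). The third tile lost it in BS and female libraries alone (quasi-binomial adjusted p = 0.0776 and 0.114) and kept it in oxBS and male libraries.

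Of the 2 Bcl11a tiles higher in B cells, the larger difference was at chr11:24155501-24156000, also in intron 2, where the B cell libraries were at 43.8% to 54.5% and the T cell libraries at 13.6% to 30.4% (quasi-binomial adjusted p = 0.00112). In the fits with a single assay or sex this call was lost (quasi-binomial adjusted p = 0.178 to 0.224).

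Spib (ENSMUSG00000008193.13, chr7:44525993-44532071, - strand) is the shortest of the 5 genes and differed over most of its length. Its 16 lower tiles formed 4 runs, of which the longest covered 3500 bp across the start of the gene. The median difference over the 33 tested tiles was -19.4 points, against 0.398 points over all tiles of the genome. T cells were at 80% or more in 26 of the 33 tiles and B cells in 12.

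The largest difference of Spib lay upstream of the start, in Spib tile 1 (chr7:44533001-44533500, 15 CpGs). Its B cell levels were 1.30% to 10.7% with a median of 4.91%, and its T cell levels 92.4% to 97.8% with a median of 94.0%. Nearly full methylation in T cells thus stood against nearly none in B cells, 89.2 points apart (quasi-binomial adjusted p = 4.91e-09). All 15 CpGs were lower in B cells, at 0% to 23.3% against 82.4% to 100%. This tile and the other 19 tested tiles upstream of Spib also lie in Pold1, which encodes the catalytic subunit of DNA polymerase delta and is transcribed from the same strand, and 7 of these 20 were lower in B cells.

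Inside the gene, Spib tile 2 over coding exon 3 (chr7:44529501-44530000) was at 5.41% to 45.7% in B cells and 89.2% to 95.1% in T cells. Spib tile 3 in intron 2 (chr7:44530001-44530500) was at 8.22% to 22.4% and 75.8% to 94.5%. Both differences were large, at 73.1 and 72.5 points (quasi-binomial adjusted p = 1.26e-06 and 4.53e-07), and the B cell libraries spread most at tile 2. There libraries 1, 2, 9 and 10 averaged 29.5% and libraries 3, 4, 11 and 12 averaged 10.6%, and the difference was 82.5 points without the former and 63.6 points without the latter.

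Pou2af1 (ENSMUSG00000032053.8, chr9:51213708-51240080, + strand) was lower in B cells upstream of its start and in parts of its first intron, and higher in 3 tiles near its 3′ end. The 12 lower tiles comprised 7 of 12 tested tiles upstream of the start and 5 of 16 in intron 1. A run of 5 lower tiles (chr9:51211001-51213500) ended just upstream of the start. The median difference over the 39 tested tiles was -8.28 points.

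Pou2af1 tile 1, in intron 1 (chr9:51225501-51226000, 5 CpGs), had the largest difference of any member tile, 89.4 points (quasi-binomial adjusted p = 1.17e-07). The B cell libraries were at 0% to 6.12% with a median of 3.15%, and the T cell libraries at 82.0% to 100% with a median of 94.0%. Pou2af1 tile 2 lay just upstream of the start (chr9:51213001-51213500, 15 CpGs), with 0% to 4.90% in B cells and 68.7% to 87.9% in T cells, 77.5 points apart (quasi-binomial adjusted p = 2.01e-08). Both were thus almost free of methylation in every B cell library. Pou2af1 tile 3, nearer to the start in intron 1 (chr9:51216001-51216500), was intermediate in B cells, at 16.7% to 39.7%, and at 73.8% to 93.0% in T cells (quasi-binomial adjusted p = 1.54e-06).

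The 3 higher tiles were neighbours near the 3′ end of the gene, 24.54 to 25.54 kb from the start. The tile in which the gene ends (chr9:51240001-51240500) went the other way and was not called. It was at 55.7% ± 7.65 in B cells and 70.9% ± 6.70 in T cells (quasi-binomial adjusted p = 0.0169). In the tile with the largest difference (chr9:51238501-51239000, 7 CpGs), over the untranslated part of exon 5, the B cell libraries were at 64.2% to 84.6% and the T cell libraries at 23.1% to 44.2%, 41.7 points apart (quasi-binomial adjusted p = 1.06e-05). All 7 CpGs had the higher level in B cells, although at the first CpG the values were 90.2% and 88.9%.

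**Figure D3:**
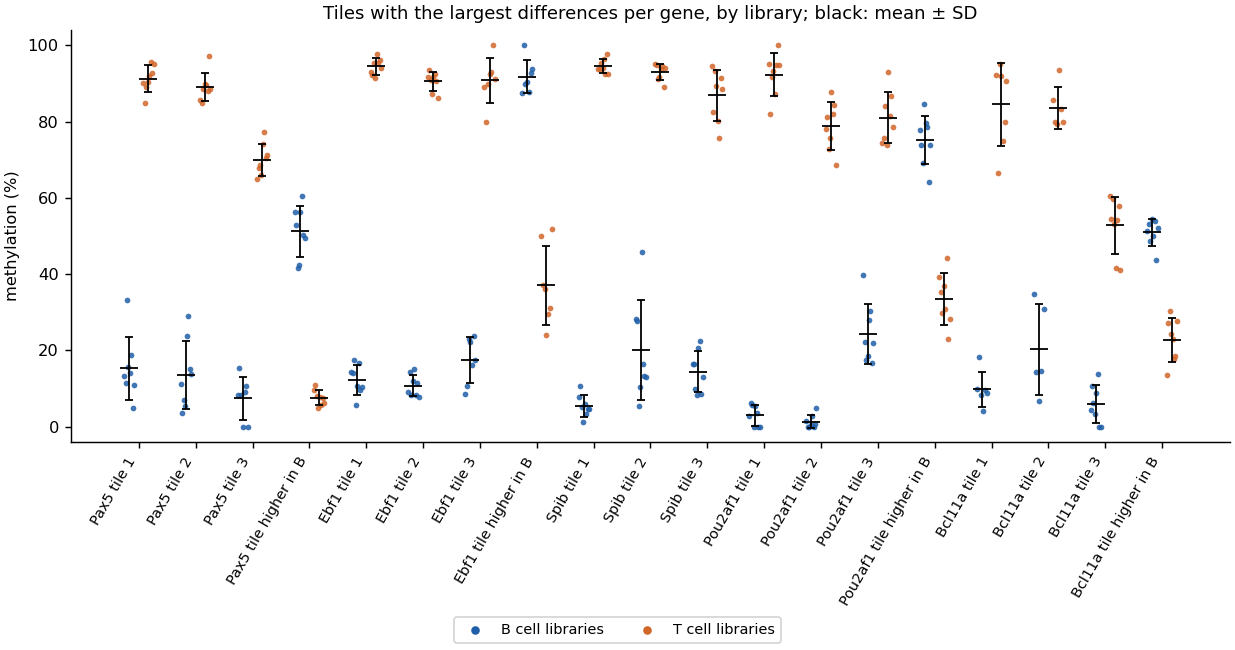
Methylation level (%) of each library with at least 20 calls (points, in order of library number) at the tiles with the largest differences of each gene, in B cells (blue) and T cells (orange), with the mean and SD in black. The 19 tiles were picked for their large differences, which makes overlap of the groups rare, and none shows it. Spib tile 2 has the widest spread among B cell libraries.

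**Figure D4:**
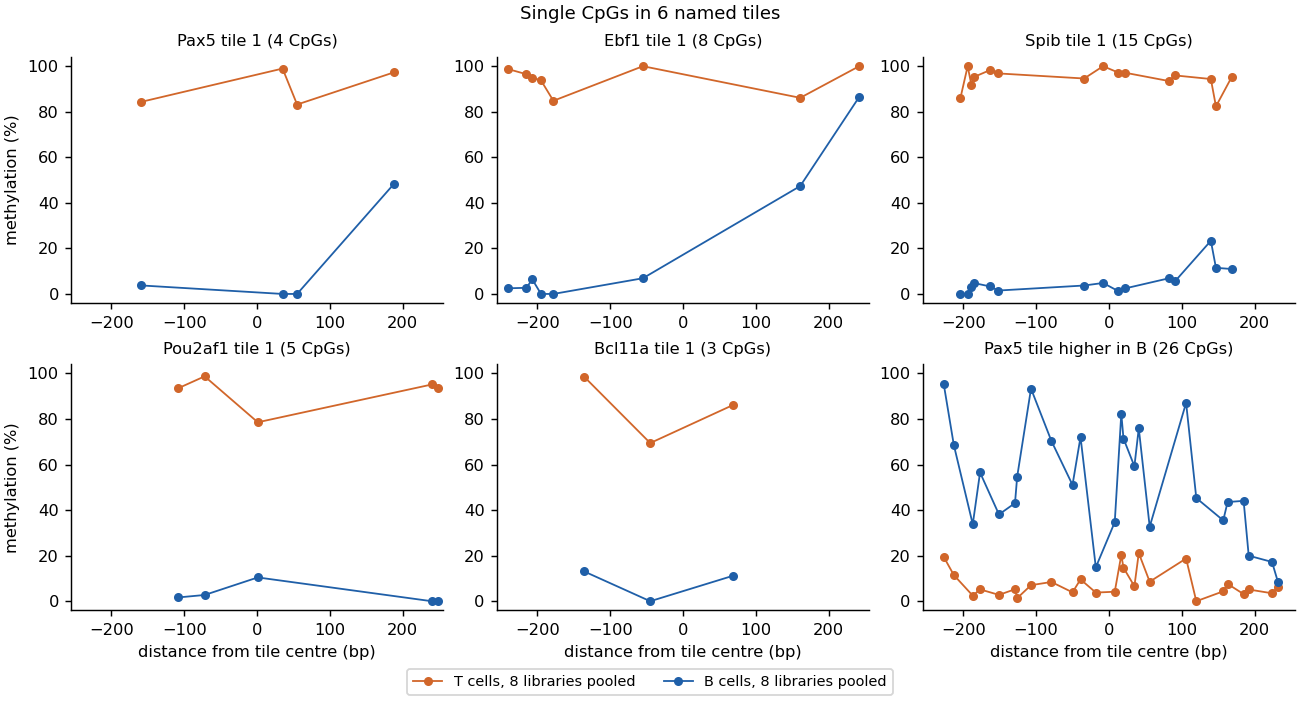
Methylation level (%) of single CpGs, pooled over the 8 libraries of each cell type, against distance (bp) from the tile centre in the first named tile of each gene and in the Pax5 tile higher in B cells. Every CpG of the first 5 panels is lower in B cells (blue) than in T cells (orange), most narrowly at the last CpG of Ebf1 tile 1 with 86.5% and 100%, and every CpG of the sixth is higher.

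At the limit of 20 points the calls were close. The smallest called differences were 21.2 points in Pax5 (74.8% in B cells and 53.7% in T cells) and -21.0 in Ebf1, -25.0 in Spib, -20.5 in Pou2af1 and -20.1 points in Bcl11a. The largest among tiles with an adjusted p under 0.05 that were not called were 19.1, -20.0, -19.4, -15.7 and -19.8 points in the same order.

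In 5 of 23 TSS windows (all 3 of Spib, 1 of 2 of Pou2af1 and 1 of 6 of Bcl11a) the level was called lower in B cells, and none was called higher. Over all TSS windows tested 0.63% were called lower in B cells and 1.35% higher. Windows of neighbouring starts share CpGs, so that those of one promoter are not independent. A further 8 windows, in Pax5 and Ebf1, had an adjusted p under 0.05 with less than 20 points between the cell types, and not all of them kept it. The difference at Ebf1-206 (TSS 44912138) was -7.53 points (quasi-binomial adjusted p = 0.0362), and it was -4.70 points with CpGs of at least 5 calls (quasi-binomial adjusted p = 0.262) and -4.27 points without libraries 3, 4, 11 and 12 (quasi-binomial adjusted p = 0.329).

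Pax5 is transcribed from alternative promoters. At the distal one (Pax5-201, TSS 44710487, 56 CpGs) the B cell libraries were at 1.64% to 6.98% with a median of 4.63%, and the T cell libraries at 14.2% to 21.3% with a median of 19.2%. At the proximal one (Pax5-208, TSS 44704006, 171 CpGs) they were at 0.616% to 2.35% and 3.10% to 4.89%. Both windows were higher in T cells, without overlap, by 14.5 points (quasi-binomial adjusted p = 1.60e-06) and 3.02 points (quasi-binomial adjusted p = 0.000131). Within the distal window the tile over the start (chr4:44710001-44710500, 9 CpGs) was called, at 20% ± 7.82 in B cells and 56.0% ± 12 in T cells (quasi-binomial adjusted p = 0.000998), while the next tile upstream was at 0.233% and 9.04%. Intron 1 held 3 more tiles called lower in B cells between these starts, at chr4:44706501-44707500 and chr4:44708501-44709000. The windows of Pax5-211 and Pax5-220, inside the gene, were at 89.8% and 91.0% in B cells and 88.8% and 89.8% in T cells.

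The main start of Ebf1 (Ebf1-201, Ebf1-202 and Ebf1-203, TSS 44617317, 68 CpGs) was at 0.763% to 2.63% in B cells and 3.25% to 7.03% in T cells, 3.72 points apart (quasi-binomial adjusted p = 0.000317), with a quasi-binomial adjusted p of 0.0755 to 0.115 in the fits with a single assay or sex. Ebf1-205, a transcript without coding sequence that starts further into the gene (TSS 44621761), was at 62.2% to 71.6% in B cells and 82.4% to 87.8% in T cells, 16.9 points apart (quasi-binomial adjusted p = 2.35e-06). The means of the 5 starts of Bcl11a at its 5′ end were at most 1.02% in both cell types, with differences of at most 0.583 points and quasi-binomial adjusted p of at least 0.219. At Bcl11a-206, another transcript without coding sequence (TSS 24142379), B cells were at 31.6% to 53.8% (median 43.0%) and T cells at 75.4% to 81.7% (median 77.3%), 35.1 points apart (quasi-binomial adjusted p = 4.67e-06). This window lost the call in BS and male libraries alone (quasi-binomial adjusted p = 0.0608 and 0.0546) and kept it in oxBS and female libraries.

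The windows of all 3 coding starts of Spib were called, and of Pou2af1 that of 1 of 2 coding starts. The window of Spib-203 (TSS 44531276) was at 4.76% to 17.9% (median 11%) in B cells and 53.6% to 70.0% (median 58.7%) in T cells, 49.3 points apart (quasi-binomial adjusted p = 3.94e-07). That of Spib-201 (TSS 44532071) was at 11.6% to 41.7% (median 22.6%) and 65.4% to 77.2% (median 72.3%), 46.8 points apart (quasi-binomial adjusted p = 6.23e-05). The cell types did not overlap at either, and the B cell libraries again spread widely at Spib-201. This difference was 57.6 points without libraries 1, 2, 9 and 10 and 36.0 points without libraries 3, 4, 11 and 12. It lost the call in BS, oxBS and male libraries alone (quasi-binomial adjusted p = 0.0551, 0.0537 and 0.112). The overlapping window of Spib-202 (TSS 44532053) was 42.1 points apart (quasi-binomial adjusted p = 0.000174). It lost the call in every fit with a single assay or sex (quasi-binomial adjusted p = 0.0684 to 0.130). The window of Pou2af1-201 (TSS 51213708) was at 4.42% to 9.80% (median 6.90%) in B cells and 33.8% to 50.3% (median 45.6%) in T cells, 37.7 points apart (quasi-binomial adjusted p = 3.09e-08), whereas that of the internal start Pou2af1-202 was at 92.8% and 95%. Within the window of Pou2af1-201 the tile over the start (chr9:51213501-51214000) was itself low in both cell types, at 1.64% ± 2.04 in B cells and 0.911% ± 0.885 in T cells (quasi-binomial adjusted p = 0.849). The 2 tiles before it that overlap the window were called, and they belong to the run of 5 upstream tiles given above.

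**Figure D5:**
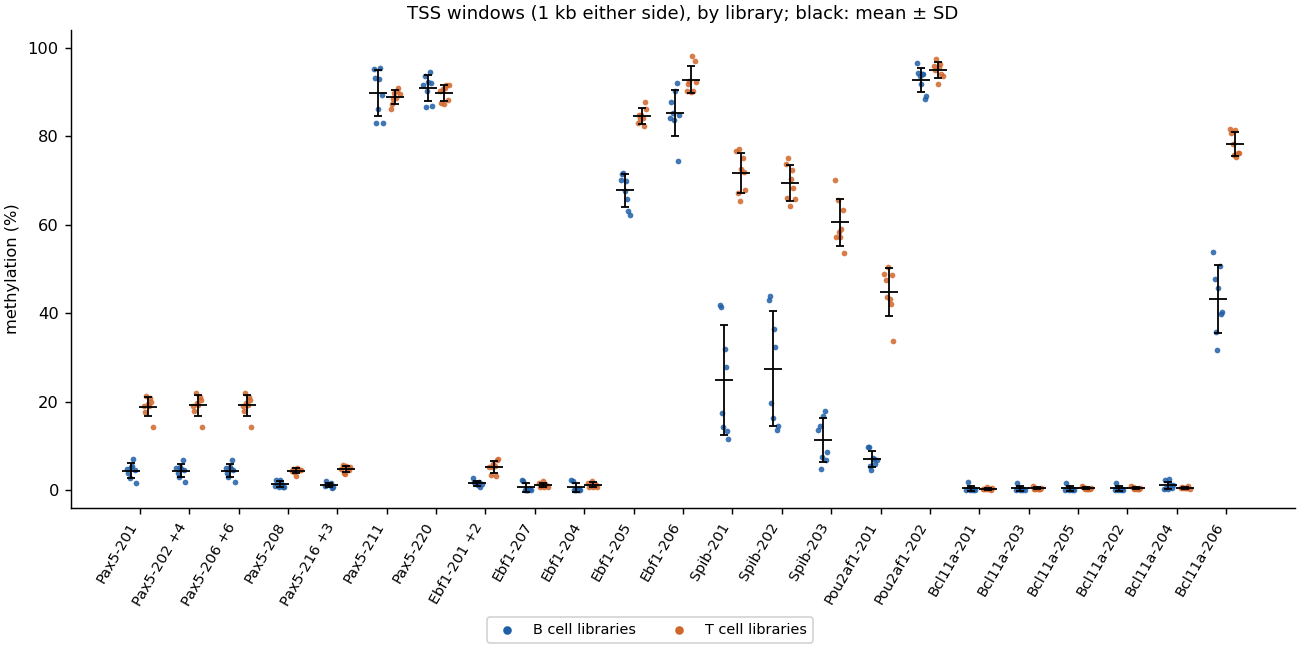
Methylation level (%) in windows of 1 kb on either side of the 23 annotated TSSs, named by transcript (with the number of further transcripts of the same start), for each B cell (blue) and T cell (orange) library, with the mean and SD in black. The groups are widely apart at the 3 starts of Spib, at Pou2af1-201 and at Bcl11a-206, and the 5′ starts of Pax5, Ebf1 and Bcl11a lie at or below 22.0% in every library.

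The 250 bases before the RefSeq starts of Spib (chr7:44532072-44532321, - strand) and Pou2af1 (chr9:51213440-51213689, + strand) are shown because these are the members with a called window at a coding start. They are from GRCm38.p6, read 5′ to 3′ along the gene, with CpGs in capitals, and RefSeq promoters were found for all 5 genes.
Spib promoter: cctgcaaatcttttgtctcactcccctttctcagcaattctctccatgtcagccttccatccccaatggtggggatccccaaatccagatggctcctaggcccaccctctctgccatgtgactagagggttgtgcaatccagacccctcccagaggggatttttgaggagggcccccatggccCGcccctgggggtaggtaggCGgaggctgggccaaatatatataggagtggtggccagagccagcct
Pou2af1 promoter: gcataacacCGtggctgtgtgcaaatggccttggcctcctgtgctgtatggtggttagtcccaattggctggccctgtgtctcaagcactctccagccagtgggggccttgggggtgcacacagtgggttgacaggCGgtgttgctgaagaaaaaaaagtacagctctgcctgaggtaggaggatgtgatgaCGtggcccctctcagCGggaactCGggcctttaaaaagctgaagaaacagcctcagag
Neither is rich in CpGs, with 2 CpGs in the bases before Spib and 5 CpGs before Pou2af1.

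Over the whole region the 5 genes ranged from much lower in B cells to not called. The Spib region was at 51.3% to 59.8% in B cells with a median of 55.5%, and at 78.4% to 81.1% in T cells with a median of 79.7%, a difference of 24.0 points (quasi-binomial adjusted p = 5.53e-07). The Pou2af1 region was at 55.5% to 67.9% with a median of 60.9% in B cells and 76.7% to 81.2% with a median of 78.9% in T cells, 17.2 points apart (quasi-binomial adjusted p = 6.03e-05). These groups did not overlap. For Bcl11a the values were 55.7% to 64.2% and 63.9% to 68.1%, which overlapped, with means 5.83 points apart (quasi-binomial adjusted p = 0.00324). The Ebf1 region was at 77.5% to 81.3% and 79.7% to 81.2%, with a difference of -1.03 points (quasi-binomial adjusted p = 0.286), and the Pax5 region at 63.2% to 69.8% and 63.3% to 65.2%, with a difference of 2.65 points (quasi-binomial adjusted p = 0.0502). Both of these differences depended on the set of B cell libraries. For Ebf1 the difference was -2.54 points without libraries 1, 2, 9 and 10 and 0.485 points without libraries 3, 4, 11 and 12, so that its direction turned. For Pax5 it was 0.571 and 4.73 points. In the same order the quasi-binomial adjusted p was 0.00356 and 0.333 for Ebf1, and 0.631 and 0.000459 for Pax5. The called differences moved too, with -27.7 and -20.3 points for Spib and -21.8 and -12.6 points for Pou2af1.

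In all, 3 of 5 gene regions were called lower in B cells and none higher, while over all 21570 regions 1.0% were called lower and 7.88% higher. Without libraries 1, 2, 9 and 10 the number called was 3, and without libraries 3, 4, 11 and 12 it was 2, as the Bcl11a difference fell below 5 points. In BS libraries alone 1 region, Spib, was called, while the differences were -18.3 points for Pou2af1 and -7.19 points for Bcl11a (quasi-binomial adjusted p = 0.0575 and 0.103).

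No member region was called for a difference between BS and oxBS libraries. In T cells the largest difference was in Pou2af1, at 80.2% in BS and 77.7% in oxBS libraries, 2.47 points apart (quasi-binomial adjusted p = 0.631). There all 4 BS libraries lay above all 4 oxBS libraries, with SDs of 0.916 and 0.892 points, and the p rests on a dispersion shared with the B cell libraries, which spread more. In a fit of the T cell libraries alone, chosen after these values were seen, the unadjusted p was 0.00945 and the quasi-binomial adjusted p was 0.0949. In B cells it was in Bcl11a, at 59.3% and 61.3%, -2.01 points apart (quasi-binomial adjusted p = 0.918). The count was 0 of 5 in each cell type, also at an unadjusted p under 0.05, and over all regions 0.0% were called in B cells and 8.77% in T cells. With the libraries of each cell type alone it was again 0 of 5, with 0.0% and 6.09% called over all regions, and Pou2af1 in T cells was the 1 region at an unadjusted p under 0.05. Among the 1050 member tiles none was called for assay in either cell type, and of all tested tiles 0.0% were called in either. At an unadjusted p under 0.05 there were 32 member tiles in B cells (3.05%, against 2.68% of all tiles) and 39 in T cells (3.71%, against 7.19% of all tiles). With the T cell libraries alone none was called either, and 17 (1.62%, against 4.25% of all tiles) had an unadjusted p under 0.05. In T cells the mean of BS libraries was above that of oxBS libraries in 613 of the 1050 member tiles (58.4%), against 61.8% of all tested tiles. It was so in 66 of the 97 tiles lower in B cells, with a median difference of 2.32 points, and in Pou2af1 in all 12 of its lower tiles, with a median of 3.82 points, and in 31 of its 39 tested tiles. Over all 25034 tiles of the genome called lower in B cells, the T cell libraries were also higher in BS, at 79.4% to 79.7%, than in oxBS, at 76.1% to 76.3%. The B minus T difference did not pass the test for a dependence on sex in any of the 5 regions (0 of 5, also at an unadjusted p under 0.05, with 0.0% called over all regions). It was -23.7 points in males and -24.4 points in females for Spib, and -17.5 and -17.0 points for Pou2af1.

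By the levels of the region in all 16 libraries, the genes most like each member were found among genes with at least 10 tested tiles. Gm867 was nearest to Spib, with a root mean square difference of 3.06 points, and it was at 54.1% in B cells and 80.4% in T cells. Cd37, a tetraspanin gene of B cells, was second nearest both to Spib and to Pou2af1, and Wfdc21 was nearest to Pou2af1 with 2.23 points. Nearest to Bcl11a were Rubcnl (1.89 points) and Cd72 (2.19 points), to Ebf1 Myo1e (0.698 points) and Tbc1d1 (1.09 points), and to Pax5 Prdm1 (1.63 points) and Gng7 (1.64 points).

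Among 16 partners and other B cell transcription factors, 5 had a TSS window called lower in B cells and 1 a window called higher, against 1.61% and 3.23% of all protein-coding genes. Irf8, which directs B cell and myeloid development, had a window at 20.7% ± 5.70 in B cells and 89.8% ± 2.49 in T cells and was also the gene with a window higher in B cells. Tcf3, which encodes the E proteins, had one at 7.05% ± 2.95 and 73.5% ± 6.73. The others called lower were Pou2f1 (which encodes Oct-1), Spi1 and Mef2c. Among genes whose largest absolute window difference was positive, Ikzf3, with 88.6% ± 3.20 and 71.5% ± 5.90, and Bach2, with 33.6% ± 9.78 and 19.6% ± 6.75, came first, and neither window was called. Of the 16 gene regions, 2 were called lower in B cells (Tcf3 and Irf8) and 5 higher (Irf4, Foxo1, Bach2, Ikzf1 and Runx1), where 1.0% and 7.88% of all regions were. Of the 2082 tested tiles in these regions 113 (5.43%) were lower in B cells and 309 (14.8%) higher. In all protein-coding gene regions 1.33% of tiles were lower and 2.51% higher. Most of the higher tiles lay in Bach2 (133 higher and 11 lower), Ikzf1 (52 and 1) and Runx1 (52 and 9). In the rest of the list more tiles were lower than higher. There Irf8 had 5 higher and 21 lower and Pou2f2 4 and 15, while Foxo1 had 21 and 5 and Irf4 11 and 3.

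Of 18 genes taken as targets of Pax5, Ebf1 or Pou2af1, 14 had a TSS window called lower in B cells and 1 a window called higher. Of all protein-coding genes 1.61% and 3.23% had one. Of the gene regions of these targets 13 were called lower, against 1.0% of all regions. The 14 include the B cell markers read above, such as Cd79a, Cd79b, Ms4a1 and Cd22, which are not separate observations. The largest difference was at Ms4a1, which encodes CD20, with 13.6% ± 4.70 in B cells and 94.2% ± 1.97 in T cells, followed by Fcrla with 18.3% ± 8.19 and 90.9% ± 0.648. The window that was higher belonged to Cd55, at 95.1% ± 3.39 and 71.5% ± 7.39. Of the 3 without a called window, Cd72 was at 5.83% and 19.8%, Cr2 at 11% and 15.9%, and Bst1 at 82.9% and 87.3%.

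T lineage transcription factors were mostly higher in B cells. Of 10 such genes, 6 had a TSS window called higher in B cells and 1, Foxp1, also had one called lower. Of all protein-coding genes 3.23% and 1.61% had one. Of the 10 gene regions 8 were called higher and none lower, against 7.88% and 1.0% of all regions. Satb1, an organiser of T cell chromatin, had the largest difference, at 96.6% ± 3.09 in B cells and 1.07% ± 1.65 in T cells, followed by Zbtb7b, which directs the CD4 lineage, at 82.0% ± 6.35 and 5.14% ± 4.57. In these 10 genes 30.4% of tested tiles were higher in B cells and 2.45% lower, whereas in the 5 B lineage genes 2.67% were higher and 9.24% lower and in all protein-coding gene regions 2.51% and 1.33%. Ets1 was the gene of this list whose largest window difference was negative, at 44.4% ± 5.38 and 53.0% ± 8.71, and this window was not called. The region of Ets1 was called higher in B cells, by 26.4 points.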

How the data were processed

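Whole-genome BS and oxBS libraries of splenic B and T cells were analysed, 8 of each cell type. Per the labels and the study's methods, the authors trimmed reads with Trim Galore 0.6.0, aligned them to mm10 (GRCm38) with Bismark 0.20.0, used SAMtools 1.3.1, kept mapping quality of at least 10 and combined strands. The deposited values are counts of unmethylated and methylated calls per CpG. Counts at reference CpGs of chromosomes 1 to 19 and X were pooled over tiles, TSS windows and gene regions of GENCODE vM21. A feature was tested with at least 3 CpGs and at least 5 libraries of each cell type with at least 20 calls (3 where a cell type had 4 libraries). A quasi-binomial logistic model with cell type, sex and assay was fitted to each feature, with an F-test on the deviance, a Pearson dispersion of at least 1 and Benjamini-Hochberg adjustment over all features of its kind. The model was tested on simulated data. Python 3.11.15, NumPy 2.4.6, SciPy 1.17.1 and pandas 2.3.3 were used. A call is a CpG in a read, so that a read over several CpGs adds several calls, which are not independent. Reads had no molecular identifiers, and 5.78 to 7.99 calls per CpG and library make single tiles imprecise.

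The 5 genes, the gene lists and the tests were chosen with earlier results of these data known. Named for each gene were all TSS windows, the 3 tiles lower in B cells and the 1 tile higher in B cells with the largest differences, the tiles at the 20 point limit and the 2 genes with the most similar levels, and from each list the genes with the 2 largest differences in each direction, each gene being read by its window with the largest absolute difference. Alternatives were other call, CpG and difference limits, other tile lengths, single assays or sexes, no covariates, the estimated dispersion, an exact permutation test and left-out libraries. Between 2 libraries of a cell type the mean chi-square per gene region was 5.38 to 14.3 in B cells and 5.11 to 14.0 in T cells. Neighbouring CpGs of a read are not independent, so that the size of a single value cannot tell a difference between libraries from counting error. Compared with each other, T cell pairs of the same assay had 5.11 to 6.66 and pairs of BS against oxBS had 11.1 to 14.0. The largest B cell value, 14.3, was between libraries 3 and 4 of the same set given above. Libraries 10 and 12, of different sets, had 5.84. Sequences were read from GRCm38.p6, and promoter starts are those of RefSeq. A gene of the marker and target lists is not reported here by name.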

Additional observations from a re-analysis of the deposited data

Results flagged for a closer look

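A library stood far from the others of its cell type, by Dixon's test, in 6 of 94 groups of levels examined, where chance alone flags about 1 in 20. In the B cells, library 2 was the highest at 4 overlapping TSS windows at the 5′ end of Bcl11a. Its levels were 1.79% at TSS 24078056, 1.67% at TSS 24078117, 1.65% at TSS 24078147 and 1.63% at TSS 24078173, and the next highest libraries were at 0.457%, 0.589%, 0.574% and 0.552%. These windows share most of their CpGs and count as 1 observation. At the proximal Pax5 promoter (TSS 44704006) T cell library 8 was the lowest with 3.10%, and the next was at 4.05%. At Pax5 tile 2 T cell library 15 was the highest with 97.1%, and the next was at 90%. None of these windows or tiles had a library that crossed into the range of the other cell type, except at Bcl11a, where the cell types overlapped throughout.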

How the results depend on the processing

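The counts of called features fell most in the fits with a single assay or sex, and they also changed with the limit set on the difference. Those fits differ from the main one in the number of libraries, their make-up and the covariates together. With 4 libraries of each cell type, the tiles lower in B cells numbered 29 in BS, 33 in oxBS, 27 in male and 26 in female libraries, all of them among the 97, and the tiles higher in B cells numbered 5, 4, 5 and 5 against 28. The TSS windows called were 2 in BS, 3 in oxBS and 2 in male libraries against 5, and the gene regions called were 1 in BS and 1 in male libraries against 3. Tiles of 1000 bp gave 63 lower and 17 higher. A limit of 10 points gave 55 tiles higher and 9 TSS windows, and a limit of 30 points gave 11 tiles higher. Without B cell libraries 1, 2, 9 and 10, 17 tiles were higher; the cause was not tested. Under the other alternatives the lower tiles numbered 66 to 126. Leaving out each library in turn gave 0 to 0 gene regions with a BS and oxBS difference in B cells, in T cells, or with a dependence on sex. Of 408 alternative values at named tiles and TSS windows, 380 stayed on the same side of the call limits of adjusted p and 20 points together, 28 kept the direction and lost the call, all of them in fits with a single assay or sex, and 0 called values reversed. The lost calls were 8 in BS, 7 in oxBS, 7 in male and 6 in female libraries. Besides those given above, they were Pax5 tile 3 (female), Ebf1 tile 3 (male), Pou2af1 tile 3 (BS) and the named Pou2af1 tile higher in B cells (oxBS and female). The 380 include values at TSS windows that were not called in the main fit and so had no call to lose. Among windows not called, such as those inside Pax5 and at the 5′ end of Bcl11a, small differences changed sign without either set of B cell libraries. Leaving out single libraries was not run for the tile and window counts, which had 8 libraries of each cell type. No paired analysis was possible because the B and T cell libraries share no library numbers and the labels do not tie a BS library to an oxBS library.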
